A study of Mus musculus with 2 samples.

Results

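The let-7 family is a group of microRNAs, small regulatory RNAs that base-pair with messenger RNAs and repress them. The members described here were 10 of the 1973 microRNA genes counted in newborn mouse skeletal muscle, taken by gene symbol: Mirlet7a-1, Mirlet7a-2, Mirlet7b, Mirlet7c-1, Mirlet7c-2, Mirlet7d, Mirlet7f-2, Mirlet7g, Mirlet7i and Mir98. The rule went by names and used no measured value, although it was set with earlier results of these data known. The study sequenced RNA shorter than 30 bases from muscle of strain B6NCrl at postnatal day 0, in 2 libraries, each from a piece of tissue of 1 pup. Both libraries form 1 group (biological replicates 1 and 2 in the labels), so the data hold no contrast between conditions. The labels give both libraries the same donor record and no sex, so that the samples came from separate pups rests on the replicate label, and the spread between them may be partly technical. The questions taken up were how the let-7 genes ranked in this tissue, how genes with and without an identical mature copy elsewhere in the genome compared, and how each gene stood against its neighbours on the chromosome.

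let-7 was first found in Caenorhabditis elegans as a gene that times larval development, and its mature sequence is nearly the same from worms to mammals. Its precursors are made early, but the RNA-binding protein LIN28 holds back their processing in stem cells and embryos, so that mature let-7 accumulates as tissues differentiate. Known targets include Lin28 itself, Hmga2, Ras genes and genes of insulin and IGF signalling, and excess let-7 in mice impairs glucose handling, in part through muscle. Most of the family's microRNAs come from the 5p arm (the 5′ side of the hairpin precursor), whose bases 2 to 8, the seed, lead target pairing.

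The 5p sequences are shown first because which gene a read can be assigned to depends on them. They were taken from RefSeq (GRCm38.p6) and found in the hairpins of all 10 members. The seed is in capitals.
let-7a-5p (Mirlet7a-1 and Mirlet7a-2): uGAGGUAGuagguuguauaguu
let-7b-5p (Mirlet7b): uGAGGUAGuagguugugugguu
let-7c-5p (Mirlet7c-1 and Mirlet7c-2): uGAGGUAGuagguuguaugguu
let-7d-5p (Mirlet7d): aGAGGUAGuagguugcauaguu
let-7f-5p (Mirlet7f-2, and Mirlet7f-1): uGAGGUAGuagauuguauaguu
let-7g-5p (Mirlet7g): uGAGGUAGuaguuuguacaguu
let-7i-5p (Mirlet7i): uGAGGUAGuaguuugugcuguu
miR-98-5p (Mir98): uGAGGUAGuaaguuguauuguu
let-7e-5p (Mirlet7e, read from the other strand of another gene): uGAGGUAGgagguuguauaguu
All of these share the seed and the length of 22 bases. Counted from 1 at the 5′ end and written as the let-7a base, the position and the other microRNA's base, let-7c differed from let-7a by A19G, let-7f by G12A and let-7e by U9G. let-7b differed by A17G and A19G, let-7d by U1A and U16C, let-7g by G12U and U18C, and miR-98 by G11A and A19U. let-7i was the most distant, with G12U, A17G, U18C and A19U.

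Of the 10 genes, 5 (Mirlet7a-1, Mirlet7a-2, Mirlet7c-1, Mirlet7c-2 and Mirlet7f-2) have a 5p sequence that another annotated mouse microRNA gene also encodes, and the other 5 (Mirlet7b, Mirlet7d, Mirlet7g, Mirlet7i and Mir98) do not. The deposited tables list multimapping reads in a row of their own. The rule behind that row is not given in the sources used here. If it sets apart every read that fits more than 1 place, a gene with a copy holds only reads that fit it alone. Its counts are read here as lower limits on that assumption. The reading also assumes that each read came from the gene it fits, which was not tested. The bases that set copies apart lie outside the annotated mature sequence. Below, the 5p sequence is in lower case and the genomic bases after it, up to the first that differs between the copies, are in capitals.
Mirlet7a-1: ugagguaguagguuguauaguuUU
Mirlet7a-2: ugagguaguagguuguauaguuUA
Mirlet7c-1: ugagguaguagguuguaugguuUA
Mirlet7c-2: ugagguaguagguuguaugguuUU
Mirlet7f-1: ugagguaguagauuguauaguuG
Mirlet7f-2: ugagguaguagauuguauaguuU
To be told from its copy by the 3′ end, a read of let-7a or let-7c has to run 2 bases past it, and one of let-7f 1 base. A read that began 1 base before the 5′ end would also do for all 3 pairs. The 3p arm (the other side of the hairpin) does not help every gene: the 3p sequences of Mirlet7a-1 and Mirlet7c-2 are identical to each other, while those of Mirlet7a-2, Mirlet7c-1 and Mirlet7f-2 are found in no other gene.
let-7a-1-3p and let-7c-2-3p: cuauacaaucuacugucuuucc
let-7f-2-3p: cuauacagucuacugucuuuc
The deposited counts are totals per gene, so 5p and 3p reads could not be told apart in them.

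Replicate 1 held 16398945 reads and replicate 2 held 21037937, of which 48.5% and 51.4% fell on the annotated strand of a microRNA gene. Multimapping reads made up 28.01% and 26.9%. Levels are given in CPM (a gene's annotated-strand counts divided by the library's total of such counts and multiplied by 1000000), on which scale 3 counts, the smallest amount taken as measured, were 0.377 CPM in replicate 1 and 0.277 CPM in replicate 2. CPM is a share, so fewer cells of a type and less RNA per cell cannot be told apart. The tissue label was checked on markers: 7 of 8 skeletal muscle microRNA genes were matched, and 6 reached 10 counts in both libraries. The 7 together held 10.9% and 12.3% of counts, and Mir206 alone 10.7% and 12.1%. Mir133b had 841 and 823 CPM, Mir208b 732 and 763 CPM, and Mir499 545 and 442 CPM. Mir1a-1 had 10.1 and 6.47 CPM and Mir133a-1 5.91 and 5.55 CPM. Both, and Mir133b, share 20 bases of their hairpin with another microRNA gene. The limit given above for genes with a copy may therefore hold for them, which was not tested. The heart gene Mir208a held 0.00155% and 0.00121%, endothelial Mir126a 4.50% and 4.74%, 2 erythroid genes 0.0583% and 0.0286%, 2 leukocyte genes 0.0574% and 0.0448%, 7 epithelial and skin genes 0.0531% and 0.0335%, and the cartilage gene Mir140 0.126% and 0.107%. Of 5 neuronal genes (the miR-124 and miR-9 genes) 3 were at 0 in both libraries and 0 reached 10 counts in both, and 8 pluripotency genes held 5.78e-04% and 4.72e-04%. The part of other cell types in the let-7 levels was not tested.

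The 10 let-7 genes together held 9.31% of the microRNA counts in replicate 1 and 9.13% in replicate 2 (9.22% ± 0.128, SD, n = 2). All 10 passed the minimum of 10 counts in both libraries that 365 genes passed, the lowest member count being 624 for Mirlet7a-1 in replicate 2. Their mean levels spanned 530-fold. Most of that family total came from a pair of genes: Mirlet7i gave 48.4% ± 0.401 of the let-7 counts and Mirlet7g 30.6% ± 0.531. Mirlet7d followed with 10.2% ± 0.932, Mirlet7b with 4.37% ± 0.281, Mir98 with 4.11% ± 0.0881 and Mirlet7f-2 with 1.93% ± 0.433 (SD, n = 2 each). Each of the other 4 gave between 0.091% and 0.117%. Mirlet7f-2 and these 4 genes all have a copy, so their counts are read as lower limits on the assumptions above. The shares therefore describe the counts and may not be those of the mature microRNAs.

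Mirlet7i, which encodes let-7i and lies in an exon of the transcribed pseudogene D630033A02Rik (chr10:122985640-122985724, minus strand, GRCm38), had 44753 CPM in replicate 1 and 44400 CPM in replicate 2, and ranked 7 of 365. It has no annotated microRNA gene within 50 kb. Mirlet7g, in an intron of Wdr82 (chr9:106178840-106178927, plus strand), had 28851 and 27604 CPM and ranked 11. The values of these genes did not overlap, and Mirlet7i exceeded Mirlet7g 1.58-fold ± 0.0405 (SD, n = 2). Mirlet7g has 1 annotated microRNA gene within 50 kb, Mir135a-1 at 24.6 kb on the same strand, which had 1 and 2 counts.

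Mirlet7d (chr13:48536012-48536114, minus strand, in an exon of the lincRNA 6720427I07Rik) had 8849 and 9879 CPM and ranked 22, so that Mirlet7g exceeded it 3.03-fold ± 0.330. Mirlet7b (chr15:85707319-85707403, plus strand, in an exon of the long non-coding RNA Lncppara) had 4254 and 3809 CPM and ranked 45. Mir98 (chrX:151913214-151913321, plus strand, in an intron of Huwe1, a ubiquitin ligase gene) had 3769 and 3809 CPM and ranked 47. Mirlet7b and Mir98 overlapped and could not be ordered, while both stayed below Mirlet7d in each library.

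Mirlet7f-2 stood apart from the other genes with a copy. Lying beside Mir98 in Huwe1 (chrX:151912346-151912428, plus strand), it had 2085 and 1486 CPM and ranked 68, 16.98-fold ± 2.33 above Mirlet7c-1, the next gene in the order. Both have a copy, so this is a ratio of counts read as lower limits. The 4 remaining genes formed a group near 100 CPM. Mirlet7c-1 (chr16:77599657-77599750, plus strand, in an intron of the microRNA host gene Mir99ahg) had 136 and 79.8 CPM. Mirlet7c-2 (chr15:85706603-85706697, plus strand, in an exon of Lncppara) had 146 and 65.1 CPM. Mirlet7a-1 (chr13:48538179-48538272, minus strand, in an exon of 6720427I07Rik) had 122 and 57.7 CPM, and Mirlet7a-2 (chr9:41536716-41536811, plus strand, in introns of the non-coding genes 3110039I08Rik and Gm49317) had 102 and 66.4 CPM.

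These 4 genes ranked between 170 and 185 and overlapped throughout, so their order was not resolved. Along the whole family, 4 of 9 neighbouring pairs in the order overlapped: Mirlet7b and Mir98, and the 3 pairs among the lowest 4 genes. Dividing each level by the length of its hairpin, which ran from 83 to 108 bases, changed the place of 0 members.

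**Figure D1:**
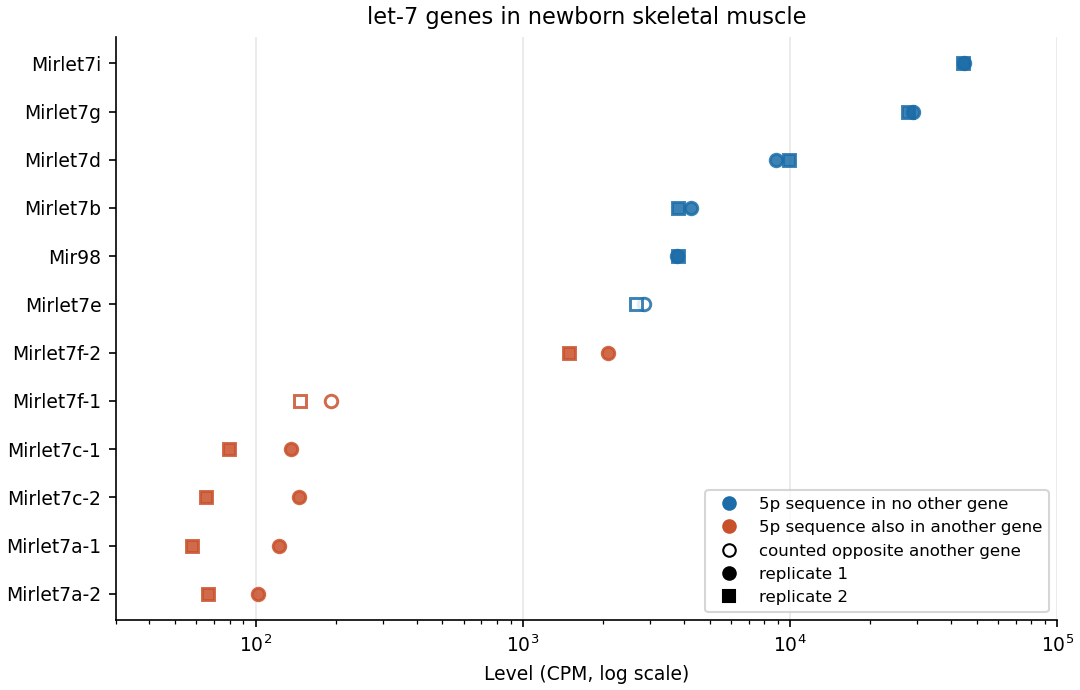
Level of each let-7 gene in CPM on a log axis, with a circle for replicate 1 and a square for replicate 2; blue marks genes whose 5p sequence is in no other annotated gene, orange those with a copy, and open symbols Mirlet7e and Mirlet7f-1, read opposite other annotated genes. The blue members sit between 3769 and 44753 CPM, Mirlet7f-2 at 1486 and 2085 CPM, and the other orange members at 57.7 to 146 CPM.

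The genes without a copy held the let-7 counts: as a group of 5 they gave 97.6% ± 0.608 of them (9.00% ± 0.0689 of all microRNA counts), and the 5 genes with a copy gave 2.35% ± 0.608 (0.217% ± 0.0591 of all counts; SD, n = 2). Their mean levels did not overlap, with 3789 to 44577 CPM for genes without a copy and 84.0 to 1785 CPM for genes with one. Their medians were 9364 CPM without a copy and 105 CPM with one. A rule of 20 shared hairpin bases picked the same 5 members, and by it the medians of the other detected genes lay closer. The 74 that share 20 bases of their hairpin with another microRNA gene had a median of 54.4 CPM, and the 281 that share none had 88.1 CPM. Genes under 10 counts in either library are left out of both, whatever they share. Averaged per gene, genes without a copy had 18095 CPM in replicate 1 and 17900 CPM in replicate 2, and genes with a copy 518 and 351 CPM, a ratio of 34.9 in replicate 1 and 51.0 in replicate 2 (43.0 ± 11.4, SD, n = 2). A few genes set the size of the ratio. It was 27.1 without Mirlet7i and 205 without Mirlet7f-2. Whether reads in the multimapping row contribute to the ratio was not tested. Genes are not replicates, so no test was made over them. The definition of a copy matters too: where a shared stretch of 18 bases counts, 8 of the 10 members share one, only Mirlet7d and Mir98 do not, and the ratio turns round to 0.667.

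let-7 genes lie in clusters whose hairpins are often cut from 1 primary transcript, so a neighbour gives a reference made close by. In each library every member with a copy was below its fixed neighbours. On chromosome 13, Mirlet7a-1 lies 2.06 kb from Mirlet7d, both in exons of the same lincRNA, and stood 72.4-fold below it in replicate 1 and 171-fold in replicate 2 (log2 ratio of Mirlet7a-1 over Mirlet7d −6.80 ± 0.88, SD, n = 2). On chromosome 15, Mirlet7c-2 lies 0.621 kb from Mirlet7b, and stood 29.2-fold and 58.5-fold below it (log2 ratio −5.37 ± 0.71).

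On chromosome 16, Mirlet7c-1 lies 0.656 kb from Mir99a, which had 27816 CPM in replicate 1 and 25074 CPM in replicate 2, nearly the level of Mirlet7g. Mirlet7c-1 stood 205-fold and 314-fold below Mir99a (log2 ratio −7.99 ± 0.44), the widest gap among the 7 pairs. Mir125b-2, 46.5 kb away, had 507 and 406 CPM, and Mirlet7c-1 stood 3.73-fold and 5.09-fold below it (log2 ratio −2.12 ± 0.32). On chromosome 9 the pattern was alike: Mirlet7a-2 stood 33.0-fold and 47.3-fold below Mir100, 5.21 kb away (log2 ratio −5.30 ± 0.37), and 6.20-fold and 7.93-fold below Mir125b-1, 45.1 kb away (log2 ratio −2.81 ± 0.25). Mir99a and Mir100 belong to 1 family and have 5p sequences found in no other gene. Mir125b-1 and Mir125b-2 encode the same 5p sequence and thus also have a copy, as the let-7 genes set against them do.

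On the X chromosome the gap was the narrowest: Mirlet7f-2, 0.785 kb from Mir98, stood 1.81-fold below it in replicate 1 and 2.56-fold in replicate 2 (log2 ratio −1.11 ± 0.36). In all 7 pairs the ratio of the let-7 gene to its neighbour was higher in replicate 1, by 0.35 to 1.24 on the log2 scale, a comparison that needs no scaling between libraries. With 2 libraries no exact test of a pair could give a two-sided p below 0.5, so none was made.

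**Figure D2:**
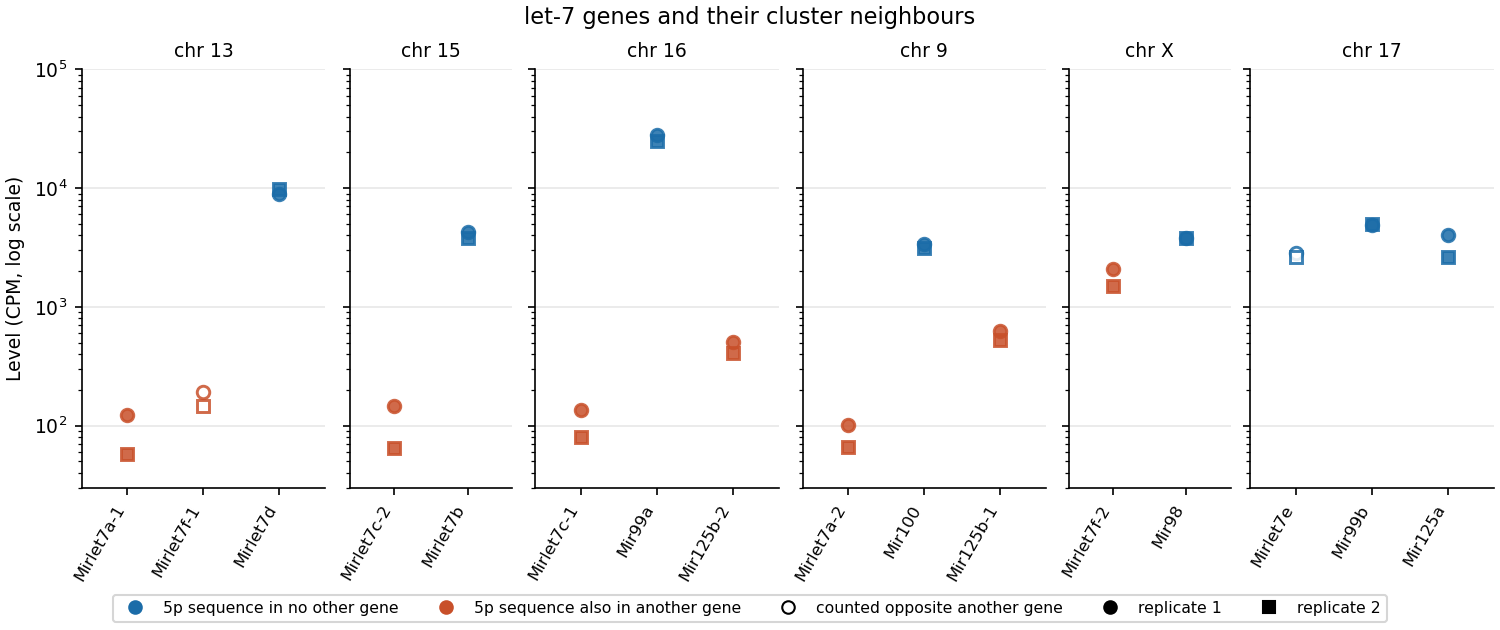
Levels in CPM on a log axis of let-7 genes and of the microRNA genes beside them, 1 panel per cluster, with symbols and colours as in the plot of levels. In each of the first 5 panels the lowest point is a filled orange let-7 gene (Mirlet7c-1 at 136 and 79.8 CPM beside Mir99a at 27816 and 25074). In the chromosome 13 panel the open orange Mirlet7f-1 lies above Mirlet7a-1 in both libraries. Mirlet7e, an inferred assignment with no copy, lies near its neighbours, and so does Mirlet7f-2, with a copy, beside Mir98.

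**Figure D3:**
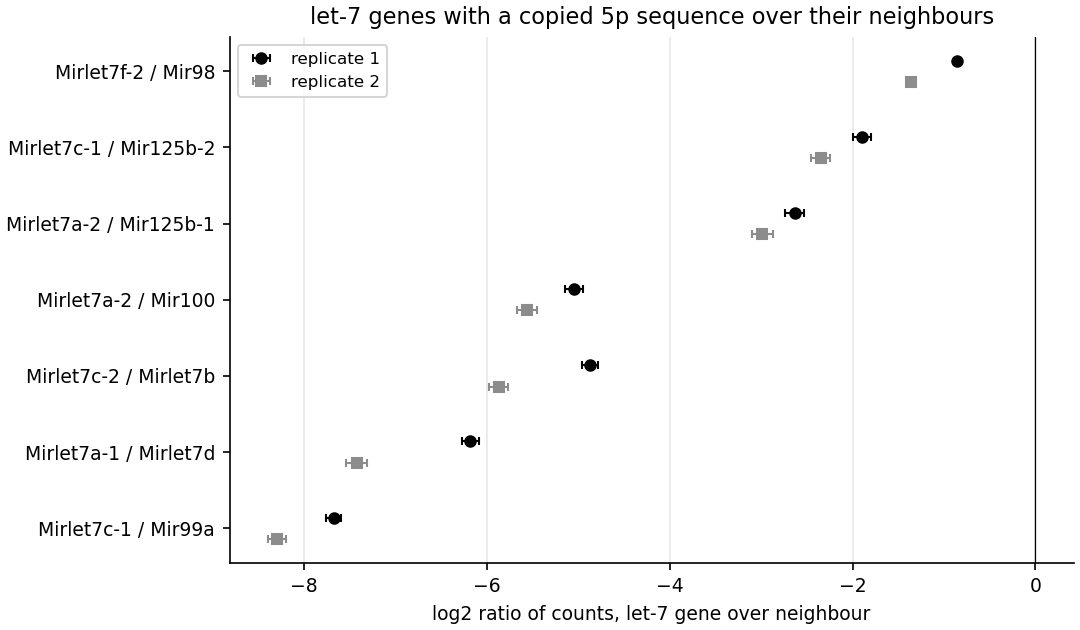
Log2 ratio of the counts of each let-7 gene with a copy over those of its neighbour, black circles for replicate 1 and grey squares for replicate 2, with 95% exact counting intervals that are in places narrower than the symbols. All ratios lie below 0, from −8.30 to −0.85, and in each of the 7 pairs the circle is right of the square.

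A further pair of let-7 genes, Mirlet7e and Mirlet7f-1, was read from the strand opposite other annotated genes. This rests on GENCODE M21 coordinates, since the M4 annotation behind the counts was not used here, so the assignment is an inference. Mirlet7e (chr17:17830352-17830444, plus strand, in an intron of Spaca6) is covered on the minus strand by the annotated microRNA gene Gm25927, whose opposite-strand column held 22681 counts in replicate 1 and 28658 in replicate 2, with 0 counts on its own strand. Assigned to Mirlet7e, that is 2851 and 2650 CPM, 0.683-fold ± 0.0181 of Mirlet7b. Mirlet7e lies 94 bases from Mir99b (4842 and 5022 CPM) and 367 bases from Mir125a (4032 and 2608 CPM). It stood 1.70-fold and 1.90-fold below Mir99b (log2 ratio −0.84 ± 0.11), while its log2 ratio to Mir125a was −0.50 in replicate 1 and 0.02 in replicate 2. Mirlet7e has no copy of its 5p sequence, and Mir99b and Mir125a have none either.

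Mirlet7f-1 (chr13:48537829-48537917, minus strand) lies 261 bases from Mirlet7a-1 and is covered on the plus strand by Gm24111, whose opposite-strand column held 1526 and 1589 counts (192 and 147 CPM), against 1 and 3 on its own strand. Its 5p sequence is the one Mirlet7f-2 also encodes. Mirlet7f-2 exceeded Mirlet7f-1 10.9-fold in replicate 1 and 10.1-fold in replicate 2 (10.5 ± 0.534, SD, n = 2), and Mirlet7a-1 21.4-fold ± 6.15. All of these genes have a copy, so the folds are ratios of counts read as lower limits and may not be those of the full levels. Mirlet7f-1 stood 46.1-fold and 67.2-fold below Mirlet7d, its neighbour at 1.71 kb. With both genes added, let-7 made up 9.48% of counts.

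Among more distant relatives, Mir7j (let-7j) carries an altered seed and had 30.8 and 34.1 CPM. Its sequence is shown to set the seed beside those above.
let-7j: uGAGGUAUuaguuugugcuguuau
Mir7k (let-7k) had 0 and 2 counts and Mir202, whose mature sequence is close to the family, had 3 and 0, both at or under the smallest amount taken as measured.

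Ratios of replicate 1 over replicate 2 were scaled by TMM (a trimmed mean over all detected genes), and a gene was called apart at 2-fold or more, a description with 1 library on each side. By this rule 0 of 10 let-7 genes were apart, against 30 of 365 detected genes (8.22%). With library totals in place of TMM, 2 of 10 were apart (Mirlet7a-1 and Mirlet7c-2), against 11.5% of detected genes, and at 1.5-fold the same 2 of 10, against 23.0%. The median absolute log2 ratio was 0.32 for the members and 0.31 for all detected genes.

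The sign of the ratio followed the grouping by copies. All 5 genes with a copy were higher in replicate 1, by 0.92 on the log2 scale for Mirlet7c-2 (95% counting interval 0.78 to 1.05), 0.84 for Mirlet7a-1 (0.69 to 0.98), 0.52 for Mirlet7c-1 (0.39 to 0.65), 0.37 for Mirlet7a-2 (0.22 to 0.52) and 0.24 for Mirlet7f-2 (0.21 to 0.27). Of the 5 without a copy 0 were higher in replicate 1, with −0.40 for Mirlet7d, −0.26 for Mir98, −0.23 for Mirlet7i, −0.18 for Mirlet7g and −0.09 for Mirlet7b. The TMM ratios lie −0.25 (log2) from those by library totals, under which 3 of the 5 genes without a copy lie above 0 (−0.16 to 0.16), while all 5 with a copy still do (0.49 to 1.16). Of all 365 detected genes, 192 (52.6%) lay above 0 by TMM and 263 by library totals. Among 113 other genes within the level range of the members with a copy, 61 did by TMM and 93 by library totals. Scaling shifts every log2 ratio by the same amount, so by construction it cannot change the gap between the groups. The mean log2 ratio was 0.58 with a copy and −0.23 without one, a difference of 0.81. That difference was 0.73 to 0.89 when any 1 gene was left out. This range describes the genes and not the spread between libraries, since the contrast is 1 library against 1.

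The difference was set beside level and shared sequence. Other detected genes within the level range of the members without a copy (3789 to 44577 CPM) had a median log2 ratio of −0.24, with 11 of 36 above 0, close to those members' own median of −0.23. Other genes within the level range of the members with a copy (84.0 to 1785 CPM) had a median of 0.03 over 113 genes. There, 27 genes that share 20 bases of their hairpin with another microRNA gene had a median of 0.23, with 19 above 0, and 86 that share none had a median of −0.01, with 42 above 0. In the higher range, the 2 genes that share had a median of −0.30, with 0 above 0, and the 34 that share none had a median of −0.23, with 11 above 0. The median of the let-7 genes with a copy was 0.52. Multimapping reads per microRNA count also differed between libraries, with 0.577 in replicate 1 and 0.523 in replicate 2. The part of level, shared sequence and library in the difference was not tested.

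**Figure D4:**
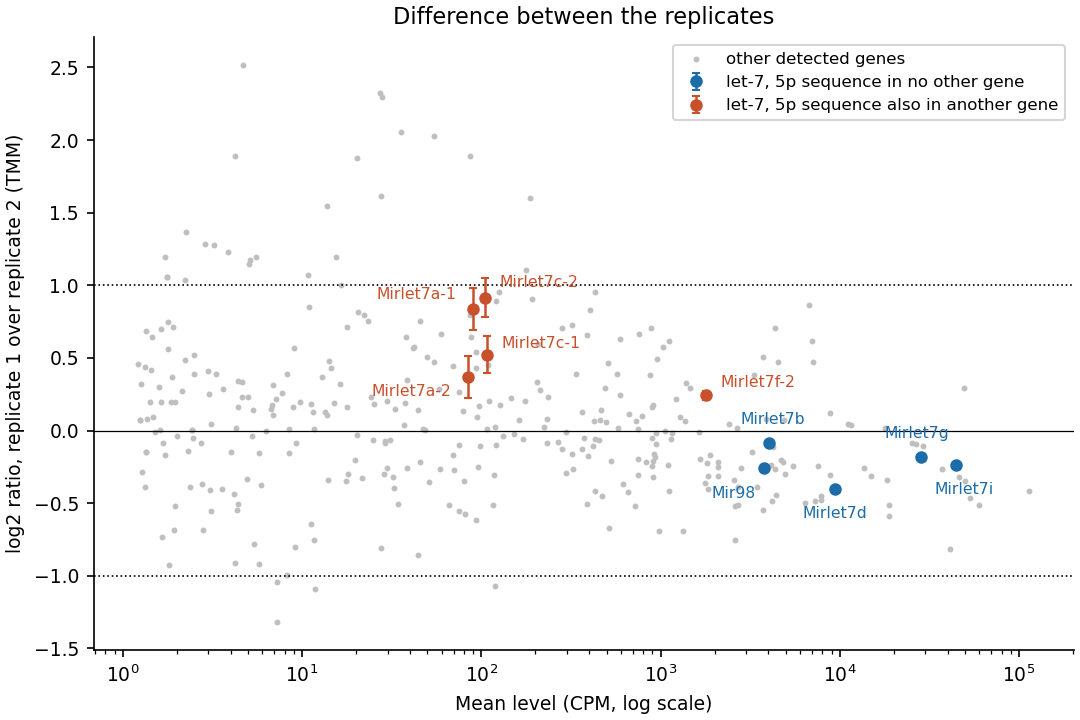
Log2 ratio of replicate 1 over replicate 2 (TMM) against mean level in CPM on a log axis, for the 10 let-7 genes (blue without a copy, orange with one, bars for 95% exact counting intervals) and the other detected genes (grey); dotted lines mark 2-fold. The orange points lie between 0.24 and 0.92, the blue points between −0.40 and −0.09, and no let-7 point passes a dotted line.

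The hairpin loops, between the annotated 5p and 3p sequences, were searched for GGAG, the letters that the zinc knuckles of LIN28 are known to bind. The search read the RNA strand alone, since the partner is RNA. GGAG was in 7 of the 10 loops (70%), against 54 of 658 mouse microRNA genes with both arms annotated (8.21%) and 16 of 63 genes whose loops are as long as those of the members, 23 to 36 bases (25.4%), the members included in both counts. Loops of the 2 highest members and of 2 that lack the motif are shown with GGAG in capitals.
Mirlet7i: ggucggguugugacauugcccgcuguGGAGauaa
Mirlet7g: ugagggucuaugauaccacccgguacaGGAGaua
Mirlet7b: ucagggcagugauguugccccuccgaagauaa
Mirlet7c-2: uugggcucugccccgcucugcgguaa
The 3 members without GGAG, Mirlet7b, Mirlet7c-2 and Mir98, had mean levels of 4032, 105 and 3789 CPM, inside the range of the 7 with it (84.0 to 44577 CPM). The loops were also searched for GAU, which was in 8 of the 10 (80%). It was in 107 of the 658 genes (16.3%) and in 20 of the 63 with loops of like length (31.7%). Mirlet7b and Mir98 hold GAU, while Mirlet7c-1 and Mirlet7c-2 do not.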

How the data were processed

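For each of 2 libraries the authors deposited raw counts per microRNA gene. Per the file headers and the readme text deposited with them, the assembly was mm10 and the annotation GENCODE M4. The aligner is not given in the sources used here, nor is the counter. Of 3 count columns, strands adding up for all 1973 genes, the fuller strand column was read as the annotated strand, which the values imply but no source states. The 4 rows that name no gene (multimapping, unmapped and the like) stayed out of library sizes. Symbols and context came from GENCODE M21 on GRCm38 (1894 of 1973 IDs matched), sequences from RefSeq.

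CPM, TMM ratios (edgeR 4.0.16, R 4.3.3, minimum 10 counts in each library) and 95% exact Clopper-Pearson counting intervals (scipy 1.17.1, Python 3.11.15, pandas 2.3.3, numpy 2.4.6, matplotlib 3.10.9) were computed. Intervals and floors cover counting error only. The ratio step was tested on simulated data. With 1 group, no hypothesis test was made. Alternatives were unstranded counts, other minimums, DESeq2 1.42.0 size factors, library totals, other definitions of a copy and each replicate left out. Leaving out Mirlet7i or Mirlet7f-2, adding Mirlet7e and Mirlet7f-1, and scaling per length were chosen after seeing the data. The level ranges were too. Named genes were the members, other let-7 genes, fixed cluster neighbours and microRNA genes within 50 kb of a member. The members and lists were chosen with earlier results of these data known.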

Additional observations from a re-analysis of the deposited data

Results flagged for a closer look

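Reads on the strand opposite Gm25927, which is the strand of Mirlet7e by GENCODE M21 coordinates, came to 22681 counts in replicate 1 and 28658 in replicate 2, outside the annotated-strand counts used for the members and far above the 3 counts taken as the smallest measured amount. Reads opposite Gm24111, on the strand of Mirlet7f-1, came to 1526 in replicate 1 and 1589 in replicate 2. Mirlet7b had 11 counts on its opposite strand in replicate 1 and 27 in replicate 2, beside 33847 and 41197 on its own strand. Mirlet7i had 2 and 0 opposite-strand counts, and the other 8 members 0 in both libraries.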

How the results depend on the processing

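No paired analysis was possible because both libraries belong to 1 group. The let-7 share of 9.22% was 8.18% with unstranded counts, 4.603% of all reads, 9.00% without the genes that have a copy, 9.48% with Mirlet7e and Mirlet7f-1 added, and 9.13% to 9.31% with a replicate left out. All 10 members were detected under each minimum. Of 10 members, 2 were apart with library totals and 2 at 1.5-fold, against 0. Of 365 detected genes, 42 (11.5%) were apart with library totals and 84 (23.0%) at 1.5-fold, against 30 (8.22%). With other filters, 115 of 591 genes were apart at a minimum of 1 count, 15 of 278 at a minimum of 50 and 229 of 718 with no filter. The mean per gene without over with a copy (43.0) was 107 with medians, 27.1 without Mirlet7i, 205 without Mirlet7f-2, and turned round to 0.667 where 18 shared bases count as a copy; leaving out a replicate gave 34.9 to 51.0. Leaving out 1 of 2 libraries cannot move a mean by more than their spread, and the members have few opposite-strand counts, so neither alternative bears on the stability of the neighbour ratios. Levels moved by more than the spread in 13 of 40 settings, all 13 with unstranded counts or with all reads as the denominator. The 40 include settings with a library left out, which for the same reason cannot move a level by more than the spread. Of 30 for the replicate ratios, 14 moved by more than the counting interval. A single group, 2 libraries and gene totals without arms limit these data, and 28.01% and 26.9% of reads were multimapping, by a rule not given in the sources used here.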
